A study of Mus musculus with 16 samples.

Results

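Prostaglandin genes were followed in primary mammary fibroblasts as 10 of the 18132 genes of the deposited table: the phospholipase gene PLA2G4A, the cyclooxygenase genes PTGS1 and PTGS2, the terminal synthase genes PTGES, PTGES2 and PTGIS, the receptor genes PTGER2, PTGER3 and PTGER4, and the gene of the degrading enzyme, HPGD. A row was taken when its gene symbol equalled one of these names, and all 10 have a row. The matching used no measured value, but the names themselves were chosen with earlier results of these data known. The cells came from the inguinal mammary glands of female 129S6 mice aged 8 to 10 weeks, which were either MEKK1+/+ or lacked the kinase MEKK1 (MEKK1-/-, gene MAP3K1), and all grew in DMEM with fetal bovine serum. They were either untreated or received CM for 8 h. CM was the same medium conditioned by MDA-MB-231, a human breast cancer cell line. RNA of each culture was read on its own Illumina Mouse 8 array, giving 4 arrays in each of the 4 groups. The methods give 3 mice per genotype and do not tie cultures to mice, so the spread and the p-values below are between cultures, and how the MEKK1 allele was inactivated is not analysed here.

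Prostaglandins are short-lived lipids that act near the cell that makes them. A phospholipase A2 frees arachidonic acid from membranes, a cyclooxygenase converts it into prostaglandin H2, and a terminal synthase then decides the product: prostaglandin E2 from the prostaglandin E synthases, prostacyclin from PTGIS. Each product has its own G protein-coupled receptors, and HPGD begins the inactivation of prostaglandin E2. Fibroblasts are known for making prostaglandin E2 and prostacyclin in inflamed tissue and in tumor stroma.

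The promoters of the prostaglandin genes called with CM below that have an entry, and of PTGS2, the inducible cyclooxygenase, show which sequence lies before the start of each. They are RefSeq promoter entries of assembly GRCm38.p6, read 5′ to 3′ on the gene's strand over the 250 bases before the start: Ptges (chr2:30903298-30903547, reverse strand), Ptgs2 (chr1:150099781-150100030, forward strand), Ptgir (chr7:16906240-16906489, forward strand) and Prxl2b, the present name of FAM213B (chr4:154899044-154899293, reverse strand). Capitals mark matches to the motifs named after the sequences.
Ptges: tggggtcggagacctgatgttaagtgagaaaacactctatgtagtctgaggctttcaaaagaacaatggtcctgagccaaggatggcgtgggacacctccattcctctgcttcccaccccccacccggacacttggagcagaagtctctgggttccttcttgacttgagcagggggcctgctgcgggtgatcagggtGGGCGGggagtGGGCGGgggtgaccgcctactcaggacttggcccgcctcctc
Ptgs2: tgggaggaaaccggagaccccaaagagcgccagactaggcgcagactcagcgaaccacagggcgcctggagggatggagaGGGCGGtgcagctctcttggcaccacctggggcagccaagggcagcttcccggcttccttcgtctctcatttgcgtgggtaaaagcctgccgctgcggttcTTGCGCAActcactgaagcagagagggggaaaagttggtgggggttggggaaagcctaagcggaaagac
Ptgir: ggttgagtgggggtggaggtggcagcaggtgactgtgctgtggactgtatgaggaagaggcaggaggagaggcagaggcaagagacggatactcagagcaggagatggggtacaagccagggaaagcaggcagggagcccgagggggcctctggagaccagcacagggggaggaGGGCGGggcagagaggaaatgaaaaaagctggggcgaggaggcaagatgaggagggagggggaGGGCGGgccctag
Prxl2b: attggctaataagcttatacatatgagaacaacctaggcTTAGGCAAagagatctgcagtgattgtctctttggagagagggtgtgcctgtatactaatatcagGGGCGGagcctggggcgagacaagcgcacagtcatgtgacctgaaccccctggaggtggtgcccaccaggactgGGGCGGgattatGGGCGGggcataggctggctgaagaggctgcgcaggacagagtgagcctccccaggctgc

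The letters searched on both strands were TATAAA (the TATA box), TGACG (half-site of the cyclic AMP response element), CACGTG (E-box), TGANTCA (AP-1), the NF-kB motif, TTGCNNAA (C/EBP) and GGGCGG (GC box, added after the sequences were read), of which no pair overlapped in these 4 windows. Ptges holds a GC box at -53 to -48 and another at -42 to -37, counted with -1 as the base before the start, and its window lies within the annotated span of the gene, so it is not upstream of every Ptges transcript. Ptgs2 holds a C/EBP match at -69 to -62, whose letters read the same on both strands, and a GC box at -170 to -165. Ptgir holds GC boxes at -76 to -71 and -13 to -8. Prxl2b holds GC boxes at -146 to -141, -72 to -67 and -60 to -55, and a C/EBP match on the opposite strand at -211 to -204. Of 32851 promoters of this length in the table, 32.7% hold a GC box and 9.56% a C/EBP match. Because the GC box was added after reading, its presence in these windows cannot be weighed against that share. The windows of PTGER3, PTGER4 and HPGD, which were not called with CM, hold GC boxes too. The TATA box, the half-site, the E-box, AP-1 and NF-kB had no match in the 4 windows, and 12.4%, 17.8%, 6.02%, 6.75% and 17.6% of all promoters hold one. Bases farther upstream or past the annotated start were not searched, so these genes may hold such motifs there. The table has an entry for 9 of the 10 genes, PTGIS having none.

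The authors deposited intensities, and their array medians ran from 114 to 170.1, so log2 intensities were quantile normalized, which gives each array the same distribution. A level without signal was set on each array at the 99th percentile of 1075 olfactory receptor genes, between 7.20 and 7.34 on the normalized log2 scale. All comparisons are from 1 limma fit of the 16 arrays, a gene being called at a p of 0.05 adjusted over all 18132 genes, and from 2-sided exact permutation tests of 4 arrays against 4, which cannot give a p under 0.0286. The MEKK1 gene itself, MAP3K1, was no lower under the MEKK1-/- label: its normalized log2 level ran from 7.51 to 7.95 in untreated MEKK1+/+ and from 8.06 to 8.41 in untreated MEKK1-/- cultures (log2 difference 0.53, adjusted p = 0.465 by limma, exact p = 0.0286), so directions between genotypes rest on the labels. Of 11 fibroblast markers 10 or 11 were above the level without signal on every array of each group, and fat cell and mast cell markers on none. Between 8 and 12 of 17 macrophage markers were above it on every array of a group. Their summed log2 level ran from 13.50 to 15.44 on MEKK1+/+ arrays and from 12.49 to 14.84 on MEKK1-/- arrays, and the summed level of 6 epithelial markers from 9.70 to 9.96 and from 9.84 to 13.22. In such bulk RNA, fewer cells of a type and less RNA per cell cannot be told apart.

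PTGS1, PTGES, PTGES2 and PTGIS were above the level without signal on 16 of 16 arrays, PTGS2 on 8, and PLA2G4A, PTGER2, PTGER3, PTGER4 and HPGD on 0. With CM, 2 of the 10 genes were called in MEKK1+/+ cells (PTGES and PTGIS, both higher), beside 5.01% of all genes, and 1 in MEKK1-/- cells (PTGES, higher), beside 4.69%. The median log2 difference over the 10 genes was 0.24 in MEKK1+/+ and 0.17 in MEKK1-/- cells, where that over all genes was -0.0018 and -0.0042. Groups did not overlap for 2 genes in MEKK1+/+ cells (PTGIS and PTGER2), beside 9.7% of all genes, and for 2 in MEKK1-/- cells (PTGES and PTGER2), beside 10.4%. Before adjustment 6 and 3 of the 10 genes had a p under 0.05 with CM in MEKK1+/+ and MEKK1-/- cells, beside 16.8% and 16.2% of all genes. The z-score test named in the study's methods called PTGES, PTGIS and PTGER2 in each genotype, or 3 of 10, beside 10.6% and 11.3%. As run here, that test takes no account of the small number of arrays, so its p-values tend to be too small. Over all genes it called 1916 and 2047 with CM in MEKK1+/+ and MEKK1-/- cells, where limma called 909 and 851.

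**Figure D1:**
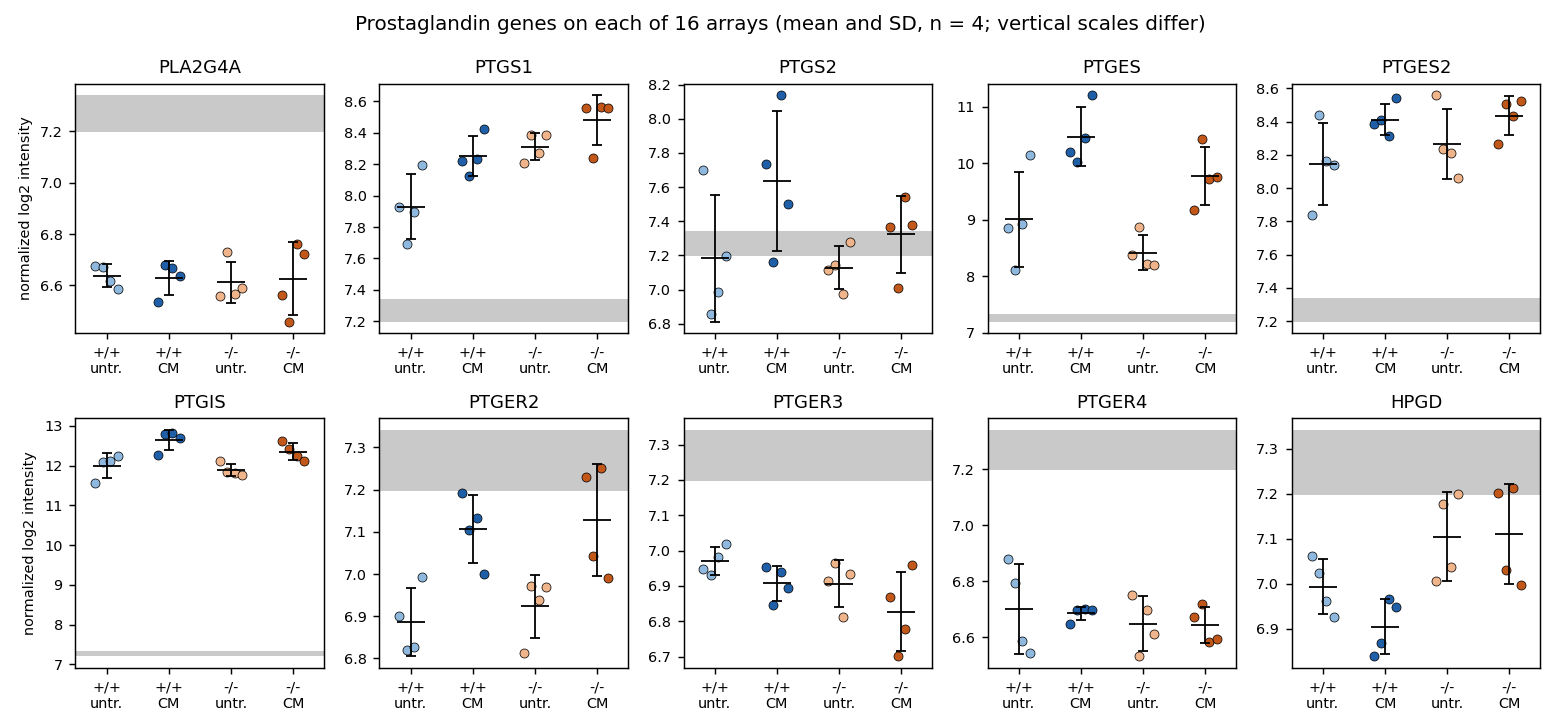
Normalized log2 intensity of the 10 prostaglandin genes on each of the 16 arrays, by genotype (+/+ or -/- at MEKK1) and treatment, with group means and SDs (n = 4) as bars and the range of the level without signal, 7.20 to 7.34, as a grey band; vertical scales differ. PTGES and PTGIS lie well above the band and higher with CM, PTGS2 straddles it, and PLA2G4A, PTGER3 and PTGER4 lie below it on every array.

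PLA2G4A, the cytosolic phospholipase A2 that releases arachidonic acid in many stimulated cells, was not above the level without signal on any array. Its normalized log2 level stayed between 6.46 and 6.76 over the 16 arrays, so its response cannot be read here. Of 17 other phospholipase A2 genes 3 were above the level on all arrays and 10 on none. By limma 0 of the 17 were called in any of the 5 comparisons, with 0, 2, 4, 0 and 1 at an unadjusted p under 0.05 (CM in MEKK1+/+ and MEKK1-/- cells, genotype in untreated cells and with CM, and the interaction), and the methods' test on z-scores called 0, 1, 1, 0 and 0. Over all genes, in the same order, 16.8%, 16.2%, 9.27%, 8.09% and 2.61% had such an unadjusted p and 10.6%, 11.3%, 4.51%, 2.54% and 0.11% were called on z-scores. Their median log2 difference with CM was -0.0020 in MEKK1+/+ and -0.025 in MEKK1-/- cells. Among them PLA2G6, a calcium-independent phospholipase A2, had a log2 difference of 0.31 with CM in MEKK1-/- cells (adjusted p = 0.151), and was called with the replicate numbers as pairs within genotype (adjusted p = 0.0200 by limma), a fit that called 7.93% of all genes.

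PTGS1 encodes cyclooxygenase 1, the form most tissues make without stimulation. In MEKK1+/+ cells its normalized log2 level was 7.93, 7.69, 7.90 and 8.20 on untreated replicates 1 to 4 and 8.22, 8.13, 8.23 and 8.42 with CM. All but replicate 4 of the untreated arrays were below all treated ones. The log2 difference was 0.32 (SE 0.10), which limma did not call without pairs (adjusted p = 0.0907, exact permutation p = 0.0571). Between same-numbered arrays it was 0.29, 0.43, 0.34 and 0.23. Fitting same-numbered arrays of both genotypes as pairs called PTGS1 (adjusted p = 0.0379 by limma). The check of pairing bore these pairs out only in part in MEKK1+/+ cells. Without pairs, PTGS1 was called when untreated replicate 4 was left out (0.41, adjusted p = 0.0216). The deposited values without quantile normalization gave -0.016, where the median gene moved by -0.28.

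On the MEKK1-/- arrays PTGS1 was 8.21, 8.39, 8.27 and 8.38 untreated and 8.56, 8.24, 8.57 and 8.56 with CM. Replicate 2 with CM stood below the other treated arrays and within the untreated range. The log2 difference was 0.17 (SE 0.10, adjusted p = 0.478 by limma), and within same-numbered pairs it was 0.35, -0.14, 0.30 and 0.17. Between genotypes PTGS1 was the only one of the 10 genes whose untreated groups did not overlap, beside 4.61% of all genes: all 4 untreated MEKK1-/- arrays were above all 4 untreated MEKK1+/+ arrays. That log2 difference was 0.38 (SE 0.10, adjusted p = 0.465 by limma, exact permutation p = 0.0286), and with CM it was 0.23 (adjusted p = 0.605). Neither passed the threshold over all genes, and r of PTGS1 with the summed macrophage markers was -0.44 over the 16 arrays. Macrophage and epithelial markers also differed with genotype, and their part in this difference was not tested.

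PTGS2 encodes cyclooxygenase 2, the form induced by cytokines and growth factors. Its normalized log2 level in MEKK1+/+ cells was 7.70, 6.85, 6.98 and 7.20 untreated and 7.74, 7.16, 8.14 and 7.50 with CM, above the level without signal on 1 and 3 arrays. In MEKK1-/- cells it was 7.11, 7.14, 6.98 and 7.28 untreated and 7.36, 7.01, 7.54 and 7.38 with CM, again above the level on 1 and 3. The treated groups reached higher in both genotypes, and treated and untreated groups overlapped in both. The log2 difference with CM was 0.45 (SE 0.20, 95% interval 0.03 to 0.87) in MEKK1+/+ cells and 0.20 (SE 0.20, -0.22 to 0.61) in MEKK1-/- cells. Neither was called by limma (adjusted p = 0.250 and 0.738, exact permutation p = 0.171 and 0.229). With most untreated arrays under the level without signal, these differences say little of the size of any change.

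PTGES encodes microsomal prostaglandin E synthase 1, the inducible enzyme that makes prostaglandin E2 from the product of the cyclooxygenases, and it had the largest log2 difference with CM of the 10 genes in both genotypes. In MEKK1+/+ cells its normalized log2 level was 8.86, 8.11, 8.93 and 10.14 on untreated replicates 1 to 4. With CM it was 10.21, 10.03, 10.45 and 11.21. Untreated replicate 4 stood above the other untreated arrays and above treated replicate 2, and the other untreated arrays were below all treated ones. PTGES rose by 1.47 on the log2 scale (SE 0.37, 95% interval 0.68 to 2.25), or 2.76-fold (adjusted p = 0.0317 by limma, exact permutation p = 0.0571). The call was lost without untreated replicate 1, 2 or 3 or treated replicate 3 or 4 (adjusted p = 0.0769, 0.0996, 0.0844, 0.0623 and 0.0994) and when only the MEKK1+/+ arrays were fitted (0.102). Without untreated replicate 4 the rise was 1.84 (adjusted p = 0.00378). Fitting same-numbered arrays of both genotypes as pairs gave an adjusted p of 0.000494 by limma. The check of pairing bore these pairs out only in part in MEKK1+/+ cells.

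On MEKK1-/- arrays PTGES was 8.38, 8.88, 8.21 and 8.21 untreated and 9.18, 10.43, 9.72 and 9.75 with CM. All 4 treated arrays were above all 4 untreated ones. PTGES rose by 1.35 on the log2 scale (SE 0.37, 95% interval 0.57 to 2.13), or 2.55-fold (adjusted p = 0.0487 by limma, exact permutation p = 0.0286). Same-numbered cultures of this genotype varied together, and within these pairs the rise was 0.80, 1.55, 1.51 and 1.54. The adjusted p was 0.000708 by limma when same-numbered arrays of both genotypes were fitted as pairs. Without pairs the call was lost on the values as deposited (0.101), with median scaling (0.0708), a pseudocount of 16 (0.0539) or a trended robust fit (0.0759). It was also lost without MEKK1-/- untreated replicate 1, 3 or 4 (adjusted p = 0.0971, 0.130 and 0.130), MEKK1-/- CM replicate 2, 3 or 4 (0.150, 0.101 and 0.111), MEKK1+/+ untreated replicate 1 or 3 (0.0591 and 0.0673) or MEKK1+/+ CM replicate 1 or 3 (0.0608 and 0.0623).

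PTGES was on average lower under the MEKK1-/- label, with a log2 difference of -0.59 in untreated cells (95% interval -1.37 to 0.19) and -0.70 with CM (-1.49 to 0.08). Neither was called (adjusted p = 0.631 and 0.647 by limma, exact permutation p = 0.343 and 0.0857), and the groups overlapped in both. Without untreated MEKK1+/+ replicate 4 the untreated difference was -0.21, and without the 4 arrays numbered 2, a setting chosen after seeing the data, the differences were -1.04 and -1.07 (adjusted p = 0.143 and 0.186). The response to CM differed between genotypes by -0.11 (SE 0.52, 95% interval -1.22 to 0.99, adjusted p = 1.00 for the interaction), and by -0.49 without untreated MEKK1+/+ replicate 4. Macrophage markers moved with genotype too: 13 of 17 were lower on MEKK1-/- arrays, with a median log2 difference of -0.74 untreated and -0.56 with CM. Of the epithelial markers 5 of 6 were higher, with a median log2 difference of 0.78 and 0.72. The epithelial sum was highest on MEKK1-/- replicate 1, at 13.22 untreated and 12.97 with CM, and the part of either list in the PTGES values was not tested. With CM the macrophage markers had a median difference of -0.081 in MEKK1+/+ and -0.022 in MEKK1-/- cells, beside rises of PTGES of 1.47 and 1.35.

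PTGES2, another membrane-associated prostaglandin E synthase that is usually made at a steady level, was 7.84, 8.44, 8.16 and 8.14 on untreated MEKK1+/+ arrays (normalized log2) and 8.38, 8.41, 8.31 and 8.54 with CM. Under the MEKK1-/- label it was 8.56, 8.24, 8.21 and 8.06 untreated and 8.27, 8.51, 8.44 and 8.53 with CM. The treated arrays overlapped the untreated ones in both genotypes. The log2 difference was 0.27 (SE 0.12, adjusted p = 0.262) in MEKK1+/+ cells and 0.17 (SE 0.12, adjusted p = 0.575) in MEKK1-/- cells, neither of them called by limma, and without quantile normalization the first was -0.092.

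PTGIS, prostacyclin synthase, was 11.55, 12.10, 12.11 and 12.24 on untreated MEKK1+/+ arrays (normalized log2) and 12.27, 12.79, 12.82 and 12.70 with CM. All 4 treated arrays were above all 4 untreated ones, the lowest treated array by a small margin. PTGIS rose by 0.65 on the log2 scale (SE 0.16, 95% interval 0.31 to 0.98), or 1.57-fold (adjusted p = 0.0260 by limma, exact permutation p = 0.0286). The call was lost on the values as deposited (log2 difference 0.23, adjusted p = 0.247) and in a fit of the MEKK1+/+ arrays alone (0.0845). It was also lost without untreated replicate 1, 2 or 3 (adjusted p = 0.0664, 0.0502 and 0.0518) or treated replicate 2, 3 or 4 (0.0663, 0.0701 and 0.0685). Fitting same-numbered arrays of both genotypes as pairs gave an adjusted p of 0.000494 by limma.

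In MEKK1-/- cells PTGIS was 12.11, 11.85, 11.82 and 11.76 untreated and 12.62, 12.42, 12.25 and 12.11 with CM. Only the lowest treated array, replicate 4, met the highest untreated one, replicate 1. The log2 difference was 0.46 (SE 0.16, 95% interval 0.13 to 0.80) and was not called without pairs (adjusted p = 0.118 by limma, exact permutation p = 0.0571). Within same-numbered pairs it was 0.51, 0.57, 0.43 and 0.35, and with the pairs fitted it was called (adjusted p = 0.00221), so that this fit called 2 of the 10 genes, beside 7.93% of all genes. Between genotypes the log2 difference of PTGIS was -0.12 untreated and -0.30 with CM (adjusted p = 0.837 and 0.647), and the difference between the responses was -0.18 (95% interval -0.65 to 0.29, adjusted p = 1.00).

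**Figure D2:**
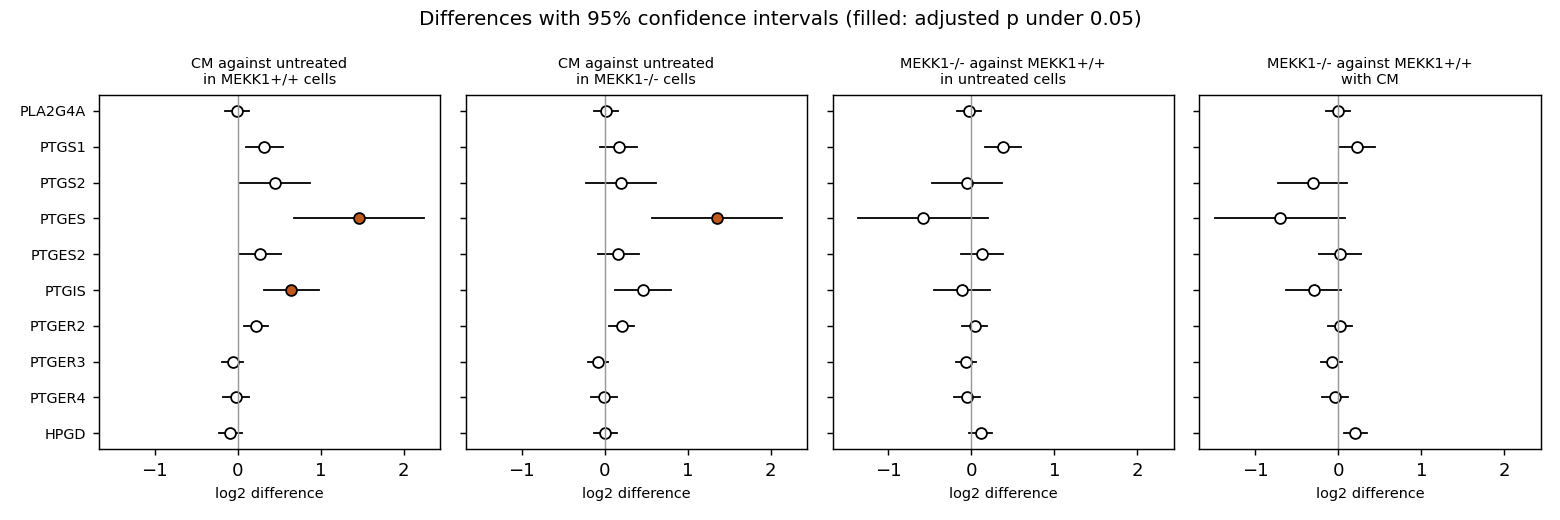
Log2 difference of each of the 10 genes in the 4 comparisons (1 panel each), with 95% confidence intervals from limma and filled points where the adjusted p was under 0.05. Only PTGES and PTGIS with CM in MEKK1+/+ cells (1.47 and 0.65) and PTGES with CM in MEKK1-/- cells (1.35) are filled, and the narrow intervals of PLA2G4A, PTGER2, PTGER3, PTGER4 and HPGD belong to signals that were not above the level without signal.

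The receptors PTGER2, PTGER3 and PTGER4 bind prostaglandin E2. PTGER2 and PTGER4 raise cyclic AMP and PTGER3 mostly lowers it. All 3 were below the level without signal on every array, so no fold is given for them. PTGER2 nevertheless kept treated above untreated arrays in both genotypes: its normalized log2 level was 6.90, 6.82, 6.83 and 6.99 untreated and 7.19, 7.11, 7.13 and 7.00 with CM in MEKK1+/+ cells. In MEKK1-/- cells it was 6.81, 6.97, 6.94 and 6.97 untreated and 7.23, 7.04, 7.25 and 6.99 with CM. The groups did not overlap in either genotype, but limma called neither difference (adjusted p = 0.0883 and 0.124, exact permutation p = 0.0286 for both). The test on z-scores called both (adjusted p = 0.00257 and 0.0262), and on the values as deposited the MEKK1+/+ difference turned to -0.037. PTGER3 ranged from 6.70 to 7.02 and PTGER4 from 6.53 to 6.88 over the 16 arrays, with overlapping groups in every comparison.

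HPGD encodes 15-hydroxyprostaglandin dehydrogenase, which oxidizes prostaglandin E2 to a product its receptors hardly bind. It too was not above the level without signal on any array, and no fold is given. Its normalized log2 level ran from 6.93 to 7.06 on untreated MEKK1+/+ arrays and from 6.84 to 6.97 with CM, and from 7.01 to 7.20 and 7.00 to 7.21 on MEKK1-/- arrays. With CM all 4 MEKK1-/- arrays were above all 4 MEKK1+/+ arrays, the only one of the 10 genes for which this held, beside 4.17% of all genes (adjusted p = 0.523 by limma, exact permutation p = 0.0286).

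Across genotypes 0 of the 10 genes were called by limma in untreated cells, where 0% of all genes were called, PTGS1 alone had an unadjusted p under 0.05 (1 of 10, beside 9.27% of all genes), and the methods' test on z-scores called 0, beside 4.51%. With CM limma called 0 of the 10 beside 0.00552% of all genes, PTGS1 and HPGD, or 2 of 10, had an unadjusted p under 0.05, beside 8.09%, and the test on z-scores called 1, beside 2.54%. That gene was HPGD, which was without signal on every array. For the interaction of genotype with CM limma called 0 of the 10 and 0% of all genes, the test on z-scores called 0, beside 0.11%, and 0 of 10 had an unadjusted p under 0.05, beside 2.61%. The median log2 difference over the 10 genes was -0.039 untreated and -0.023 with CM, where that over all genes was 0.0080 and 0.0043.

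Beyond these 10, the receptor of the PTGIS product and an enzyme of the prostaglandin F branch also rose with CM in MEKK1+/+ cells. Both were picked from wider lists by their calls. In that comparison limma called 1 of 9 other prostanoid enzymes, 1 of 5 other prostanoid receptors and 0 of 1 transporter. It called 0 of 17 other phospholipases A2 and 0 of 10 leukotriene and lipoxygenase genes. Over these lists the share called was no higher than the 5.01% of all genes. PTGIR, the prostacyclin receptor, was 8.12, 8.09, 8.64 and 8.82 untreated (normalized log2) and 9.00, 9.19, 9.26 and 9.69 with CM, with no overlap. It rose by 0.87 on the log2 scale (SE 0.22), or 1.82-fold (adjusted p = 0.0325 by limma, exact permutation p = 0.0286). FAM213B, prostamide and prostaglandin F synthase, was 8.38, 9.21, 9.16 and 9.25 untreated and 9.72, 10.03, 9.46 and 9.90 with CM, again with no overlap. It rose by 0.78 (SE 0.20), or 1.71-fold (adjusted p = 0.0347 by limma, exact permutation p = 0.0286). Both calls were lost on the values as deposited (0.0966 for PTGIR and 0.0967 for FAM213B) and in a fit of the MEKK1+/+ arrays alone (0.0545 and 0.0845). Fitting same-numbered arrays of both genotypes as pairs gave adjusted p-values of 0.00129 for PTGIR and 0.0317 for FAM213B by limma. The call of PTGIR was lost without untreated replicate 1, 2 or 3 (adjusted p = 0.0941, 0.105 and 0.0525) or treated replicate 2, 3 or 4 (0.0540, 0.0627 and 0.101), and that of FAM213B without untreated replicate 1, 2 or 3 (0.0816, 0.0504 and 0.0609) or treated replicate 1, 2 or 4 (0.0608, 0.0895 and 0.0930).

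On the MEKK1-/- arrays PTGIR was 8.15, 8.62, 8.15 and 8.00 untreated and 8.55, 9.56, 8.96 and 9.04 with CM, and treated replicate 1 was below untreated replicate 2. Its log2 difference of 0.80 (SE 0.22) just missed the threshold without pairs (adjusted p = 0.0501 by limma) and was called with them (0.00177), with differences of 0.40, 0.94, 0.81 and 1.04 within pairs. FAM213B was 9.25, 8.90, 9.01 and 8.81 untreated and 9.30, 10.00, 9.44 and 9.85 with CM, without overlap. Its log2 difference of 0.66 (SE 0.20) was not called without pairs (adjusted p = 0.0778) or with them (0.0637). It was called in 7 of 29 alternatives: with median scaling (0.0322), z-scores (0.0384), the test on z-scores (0.000605), only the brighter genes (0.0443) or array weights (0.0198), and without MEKK1+/+ untreated replicate 1 (0.0255) or MEKK1-/- CM replicate 1 (0.0413).

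**Figure D3:**
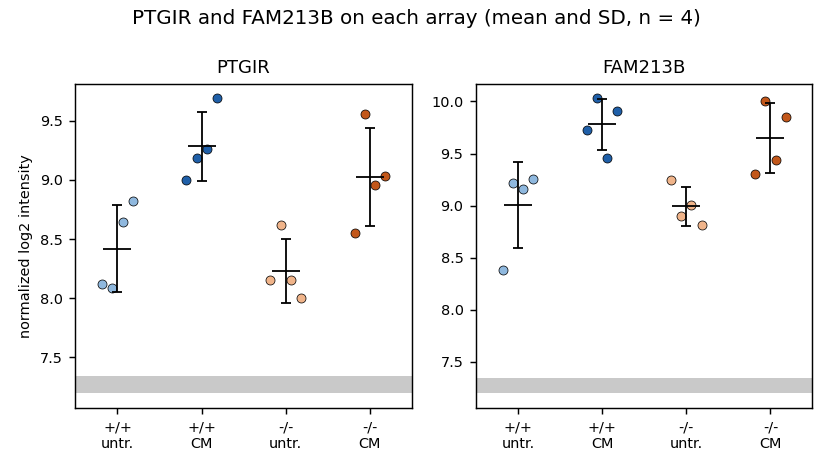
Normalized log2 intensity of PTGIR and FAM213B on each array, by genotype (+/+ or -/- at MEKK1) and treatment, with group means and SDs (n = 4) as bars and the range of the level without signal, 7.20 to 7.34, as a grey band. Treated MEKK1+/+ arrays lie at 9.00 or above for PTGIR and at 9.46 or above for FAM213B, higher than every untreated array of that genotype.

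In the limma fit without pairs, these were the only calls among the other pathway genes. Of 9 other prostanoid enzyme genes 1 was called with CM in MEKK1+/+ cells (FAM213B, higher) and 0 in MEKK1-/- cells by limma, beside 5.01% and 4.69% of all genes. In MEKK1-/- cells the test on z-scores called 3 (CBR1, PTGR2 and FAM213B), beside 11.3%, and 3 had an unadjusted p under 0.05, beside 16.2%. The list includes PTGES3, the cytosolic prostaglandin E synthase, which was above the level without signal on all arrays, and both prostaglandin D synthase genes, PTGDS and HPGDS, which were above it on none. Of 5 other prostanoid receptor genes 1 was called in MEKK1+/+ cells (PTGIR, higher) and 0 in MEKK1-/- cells by limma, where PTGIR was the 1 gene at an unadjusted p under 0.05 and the 1 called on z-scores, beside the same shares of all genes. The receptors for prostaglandins F and D (PTGFR, PTGDR and PTGDR2) were above the level on no array, while TBXA2R, the thromboxane receptor, was above it on all 16. The median log2 difference with CM was 0.027 and -0.013 over the enzymes and -0.062 and 0.0047 over the receptors, in MEKK1+/+ and MEKK1-/- cells.

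SLCO2A1, the prostaglandin uptake transporter, was above the level without signal on all arrays, and it had log2 differences with CM of 0.23 (MEKK1+/+) and 0.25 (MEKK1-/-) (adjusted p = 0.749 and 0.724 by limma). Between genotypes limma called 0 genes of these lists in untreated cells and with CM. Before adjustment 3 of 9 enzymes had a p under 0.05 in untreated cells (9.27% of all genes) and 0 with CM (8.09%), and 0 receptors or transporters in either. The test on z-scores called 2 enzymes in untreated cells, beside 4.51% of all genes, and 0 genes of these lists with CM. The 2 were PTGDS and HPGDS, both without signal here. Both were also under 0.05 before adjustment, as was TBXAS1, above the level on 4 untreated MEKK1+/+ and 2 untreated MEKK1-/- arrays. Its log2 difference was -0.44 untreated and -0.31 with CM (adjusted p = 0.489 and 0.640 by limma). With CM its groups did not overlap, beside 4.17% of all genes. The median macrophage marker differed by -0.74 and -0.56, and its part was not tested. For the interaction 0 genes of these lists were called by limma or on z-scores, and 0 had an unadjusted p under 0.05.

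Likeness to PTGES was ranked over the 16 arrays among 8796 other genes that were above the level without signal on at least 4 arrays. The closest were LCN2 (Pearson r = 0.99), which encodes the secreted iron-carrier-binding protein lipocalin 2, A4GALT (0.98), the tetraspanin gene CD82 (0.97), MFSD7A (0.96) and TNIP1 (0.96), whose product binds the NF-kB inhibitor A20. The arrays share the treatment, and after group means were removed r was still 0.98 for LCN2 and 0.96 for A4GALT, so the likeness also ran through the spread between cultures of a group. Untreated MEKK1+/+ replicate 4, the array where PTGES stood high, also had the highest untreated LCN2 level (10.71, against 6.50 to 7.85 on the other untreated arrays). The lowest LCN2 levels were under the level without signal. These correlations are descriptions picked from a ranking, with no test.

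**Figure D4:**
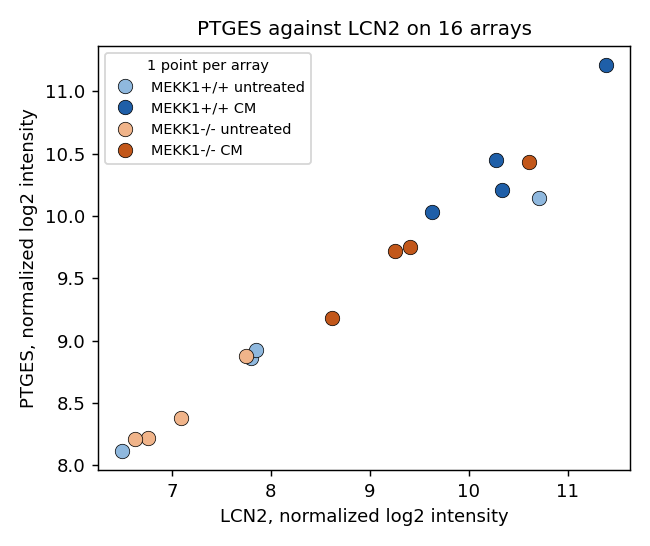
Normalized log2 intensity of PTGES (vertical axis) against that of LCN2 (horizontal axis), 1 point per array, coloured by group. The 16 points lie close to 1 line (r = 0.99), with untreated MEKK1+/+ replicate 4 among the treated arrays at 10.71 for LCN2 and 10.14 for PTGES.

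The genes most like PTGS2 were TRPS1 (r = 0.90), 4921505C17RIK (0.87), FAM134B (0.86), RORA (0.86) and CCNDBP1 (0.85), over the same 16 arrays and ranking. None of them was among the 5 closest to PTGES, and PTGS2 was itself above the level without signal on only 8 arrays. Against the summed level of the macrophage markers, r over the 16 arrays was 0.36 for PTGES, 0.30 for PTGS2, 0.13 for PTGIS and -0.44 for PTGS1, and 0.41, 0.24, -0.019 and -0.025 after group means were removed. Without the 4 arrays numbered 2, whose macrophage sums were the lowest of their group in MEKK1+/+ and the highest in MEKK1-/- cells, PTGES had log2 differences with CM of 1.31 and 1.28 in MEKK1+/+ and MEKK1-/- cells (adjusted p = 0.0633 and 0.0588 by limma), and PTGIS 0.63 and 0.42 (0.141 and 0.341). That setting was chosen after seeing the data.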

How the data were processed

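Total RNA of 16 fibroblast cultures, 4 per group, was hybridized to Illumina Mouse 8 arrays at a core facility. The authors deposited 1 intensity per gene symbol and array on a linear scale, called normalized per the labels; the normalization, background treatment and combination of probes are not given in the sources used here, and where in a transcript each probe lies is not analysed here. Groups and replicate numbers were taken from the labels.

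Intensities were converted to log2 and quantile normalized between arrays. A single linear model of the 4 groups (limma 3.58.1, lmFit then eBayes, under R 4.3.3; 12 residual degrees of freedom) gave 5 comparisons: CM in each genotype, genotype in each condition, and their interaction. P-values were adjusted by Benjamini-Hochberg over 18132 genes, with a threshold of 0.05. No count depth exists for arrays; their number limits the precision. The steps were tested on simulated data. The members and gene lists were chosen with earlier results of these data known. Genes named beyond the 10 are those of the fixed pathway lists past the threshold in any comparison, the 5 most like PTGES and PTGS2, and others named for their place in the pathway or said to be called in an alternative. EPCAM, LTA4H, CD79A, TPSB2, PTGER1 and ABCC4 were listed but not analysed here.

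Pairing by replicate number was checked by correlating, over genes, the deviations of same-numbered arrays from their group means. For MEKK1-/- cultures, untreated against CM, r was 0.505, 0.403, 0.219 and 0.251 (replicates 1 to 4). Each exceeded 0.1, and on this check alone the numbers were used as pairs there. In MEKK1+/+ it was -0.038, 0.485, 0.120 and 0.576, and between genotypes most were below 0, so numbers were not relied on as pairs there. Macrophage sums of same-numbered MEKK1+/+ arrays nevertheless lay close. They were 15.44, 13.82, 15.16 and 14.66 untreated and 15.21, 13.50, 15.09 and 14.69 with CM. The fit with pairs within genotype paired the MEKK1+/+ arrays too and used 1 estimate of the spread. Its p-values for MEKK1-/- cells therefore rest in part on the MEKK1+/+ pairs. Alternatives were other normalizations (none, median, z-scores), a z-test on z-scores as named in the study's methods, a filter on dim genes, a pseudocount of 16, only the groups compared, trended robust eBayes, array weights, replicate blocks, single arrays left out, and a required log2 change of 1 or more.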

Additional observations from a re-analysis of the deposited data

Results flagged for a closer look

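Of 40 groups of 4 arrays (10 genes in 4 groups), 2 held an array far from the others of its group, where chance gives about 1 in 20. PTGS1 on MEKK1-/- replicate 2 with CM had a normalized log2 level of 8.24, while the other 3 arrays lay between 8.56 and 8.57. PTGER4 on MEKK1+/+ replicate 1 with CM was at 6.65, the other 3 at 6.70, all of them below the level without signal.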

How the results depend on the processing

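The count of the 10 genes called with CM in MEKK1+/+ cells (2 in the fit reported) was 1 on the values as deposited, 0 with only the groups compared, 4 with array weights, 1 with a log2 change of at least 1, and 0 to 3 with each array left out. In MEKK1-/- cells (1 in the fit reported) it was 0 on the values as deposited, with median scaling, a pseudocount of 16 or a trended robust fit, 3 by the test on z-scores (3 in MEKK1+/+ cells too), and 0 to 1 with each array left out. Chosen after seeing the data, leaving out both MEKK1+/+ arrays numbered 4 gave 1 in MEKK1+/+ cells, and leaving out the 4 arrays numbered 2 gave 0 in each genotype. With CM between genotypes the test on z-scores called 1. A replicate block over all arrays gave 3 and 0, and a replicate block within genotype, which fits same-numbered arrays of each genotype as pairs, gave 3 and 2. The block over all arrays called PTGS1 with CM in MEKK1+/+ cells (adjusted p = 0.0407, and 0.0379 within genotype, which also called LTB4R1, 0.0292, and TBXAS1, thromboxane synthase, log2 difference -0.43, 0.0278), and no untreated or treated genotype difference of the 10 genes. The causes of these changes were not tested.

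Over 28 results for single genes and 797 alternatives, 702 kept direction and side of the threshold, 53 lost a call, 30 gained one and 12 changed sign, and the rises of PTGES and PTGIS with CM kept their direction in all. On the values as deposited, the sign turned for CM in MEKK1+/+ cells for PTGS1 (-0.016), PTGES2 (-0.092) and PTGER2 (-0.037), and for the interaction for PTGS1 (0.16), PTGES (0.17) and PTGIS (0.18); the median gene moved by -0.28 in the first and 0.29 in the second. The PTGES interaction also turned without MEKK1+/+ untreated replicate 2 (0.18), MEKK1+/+ CM replicate 4 (0.13), MEKK1-/- untreated replicate 2 (0.04) or MEKK1-/- CM replicate 1 (0.08), and ran from -0.49 to 0.18 with each array left out. The untreated genotype difference of PTGS2 turned with array weights (0.0091) and without MEKK1+/+ untreated replicate 1 (0.12), with a range of -0.16 to 0.12. Over all genes, CM called 909 genes in MEKK1+/+ cells in the fit reported, 591 with only the groups compared, 1916 by the test on z-scores, 1481 with the block within genotype, 69 with a log2 change of at least 1 and 458 without the arrays numbered 2. In MEKK1-/- cells it called 851, and 45 as deposited, 463 with median scaling, 2047 on z-scores, 1355 with array weights, 1438 with the block within genotype and 95 with the log2 change. Between genotypes 0 genes (untreated) and 1 (with CM) were called, 817 and 460 on z-scores and 383 and 120 without the arrays numbered 2, with 1 untreated under array weights and 7 with CM under median scaling, and 0 with CM with only the groups compared or without both MEKK1+/+ arrays numbered 4. The interaction called 0, or 20 on z-scores and 2 without the arrays numbered 2. Signal over background limits PLA2G4A, HPGD, the 3 receptors and PTGS2.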

Other observations

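Leukotrienes are made from the same arachidonic acid by a separate branch. Of 10 leukotriene and lipoxygenase genes limma called 0 in each of the 5 comparisons, with 2, 1, 3, 3 and 0 at an unadjusted p under 0.05 (CM in MEKK1+/+ and MEKK1-/- cells, genotype untreated and with CM, and the interaction), and the test on z-scores called 1, 1, 1, 1 and 0. Over all genes those shares were 16.8%, 16.2%, 9.27%, 8.09% and 2.61% before adjustment and 10.6%, 11.3%, 4.51%, 2.54% and 0.11% on z-scores. ALOX5AP and LTB4R1 were above the level without signal on every array and ALOX5 on none. LTC4S, which makes leukotriene C4, and LTB4R1, a leukotriene B4 receptor, are named after their values were seen. LTC4S was above the level on 15 of 16 arrays, and on 3 of the 4 untreated MEKK1-/- arrays. The normalized log2 level of LTC4S ran from 7.85 to 8.72 on untreated MEKK1+/+ arrays and from 7.27 to 7.76 on untreated MEKK1-/- arrays, without overlap (log2 difference -0.69, SE 0.23, adjusted p = 0.465 by limma, exact permutation p = 0.0286). The untreated genotypes did not overlap for 2 of these 10 genes, beside 4.61% of all genes. With CM the genotypes overlapped for LTC4S, at 7.86 to 8.90 in MEKK1+/+ and 7.89 to 8.40 in MEKK1-/- cells. LTB4R1 ran from 7.35 to 7.62 untreated and from 7.79 to 8.44 with CM in MEKK1+/+ cells (log2 difference 0.62, SE 0.18, adjusted p = 0.0563 by limma, exact permutation p = 0.0286), where the median macrophage marker differed by -0.081, and it was called on z-scores (adjusted p = 0.0114). Beside the LTC4S difference, that of the median macrophage marker was -0.74 and that of the median epithelial marker 0.78, and their part was not tested.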
